A study of Homo sapiens with 4 samples.

Results

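A set of 10 human genes of the aldehyde dehydrogenase family was followed in HaCaT keratinocytes: ALDH1A1, ALDH1A3, ALDH1B1, ALDH2, ALDH3A1, ALDH3A2, ALDH3B1, ALDH3B2, ALDH7A1 and ALDH9A1. They were the 10 rows with these gene names among 55536 genes of the deposited table. They were chosen with their counts in these libraries known, so their differences between groups are given as a description, without p-values. HaCaT is an established human keratinocyte line, and polyadenylated RNA was sequenced from 4 libraries of it. The 2 libraries labelled TYMP came from HaCaT lines with stable, lentivirus-driven overexpression of TYMP, which encodes thymidine phosphorylase. The other 2 libraries were labelled NC, which the labels do not spell out. Cells were harvested after 48 hours. The sources used here do not give the vector, its promoter, whether the lines were clones, or whether the libraries were separate cultures. P-values therefore measure the spread between these libraries, which may be technical.

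Aldehyde dehydrogenases oxidize reactive aldehydes to carboxylic acids, with NAD or NADP as the electron acceptor. Their substrates come from retinoid metabolism, ethanol, lipid peroxidation, sphingolipid turnover and amino acid breakdown. In skin the family makes retinoic acid, a regulator of keratinocyte differentiation, and clears fatty aldehydes, and loss of ALDH3A2 causes the ichthyosis of Sjögren-Larsson syndrome.

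TYMP, which checks the labels, had 1221 and 1100 reads in the TYMP libraries, against 281 and 264 reads in the NC libraries, a log2 fold change of 2.10 ± 0.124 (SE; edgeR adjusted p = 1.47e-06). Library totals lay between 16209663 and 17000821 counts. All 15 keratinocyte markers had reads, LGALS7 only 5 to 7 per library. The fibroblast markers COL3A1, PDGFRA and POSTN, the melanocyte enzyme TYR and the immune marker LYZ had 0 reads in every library. Other markers of these cells had reads. Melanocyte MITF had 229 to 403 reads per library and fibroblast COL1A1 71 to 138. Immune CD14 had 43 to 96 and endothelial CDH5 33 to 53. These markers were picked out after their values were seen. The level used below is CPM, reads scaled to sequencing depth and corrected for library composition by TMM. Summed CPM of the keratinocyte markers was 17947 and 16845 in the TYMP libraries, against 14322 and 13089 in the NC libraries. Of the 14 tested ones, 4 rose (KRT15, KRT5, DSG3 and KRT14) and 0 fell. KRT14 did not pass without TYMP replicate 1 (adjusted p = 0.053) or NC replicate 2 (0.113), with a range of 3.35e-06 to 0.6 over its alternatives. Summed CPM of the markers of other cells lay between 6.66 and 8.88 in TYMP and between 4.59 and 5.42 in NC libraries for fibroblasts, and at 17.4 in both TYMP libraries against 18.7 and 27.4 in the NC libraries for melanocytes. It was 6.01 to 7.08 in TYMP against 2.92 to 5.25 in NC libraries for immune cells, and 2.83 to 3.23 in TYMP against 2.72 to 3.81 in NC libraries for endothelium. Mitochondrially encoded genes took 5.09% and 4.46% of the counts in the TYMP libraries, against 4.25% and 4.24% in the NC libraries. The part of these differences in the results below was not tested. In bulk RNA, a change in the number of cells that express a gene and a change in RNA per cell cannot be told apart.

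All 10 are protein-coding genes with 1 row each, placed here on GRCh38 with GENCODE 29. The retinaldehyde dehydrogenases are ALDH1A1 (ENSG00000165092) at chr9:72900662-73080442 on the minus strand and ALDH1A3 (ENSG00000184254) at chr15:100877714-100916626 on the plus strand. The mitochondrial pair is ALDH1B1 (ENSG00000137124) at chr9:38392664-38398661 on the plus strand and ALDH2 (ENSG00000111275) at chr12:111766887-111817529 on the plus strand. Of the ALDH3 class, ALDH3A1 (ENSG00000108602) lies at chr17:19737984-19748943 on the minus strand and ALDH3A2 (ENSG00000072210) at chr17:19648136-19677598 on the plus strand. Also of that class are ALDH3B1 (ENSG00000006534) at chr11:68008578-68029282 on the plus strand and ALDH3B2 (ENSG00000132746) at chr11:67662162-67681200 on the minus strand. The remaining genes are ALDH7A1 (ENSG00000164904) at chr5:126531200-126595418 on the minus strand and ALDH9A1 (ENSG00000143149) at chr1:165662216-165698863 on the minus strand.

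The sequences just before the transcription start are shown for ALDH1A1, ALDH3A2 and ALDH1B1. ALDH1A1 and ALDH3A2 were higher in the TYMP libraries, and ALDH1B1 was lower without passing the threshold given below. The stretches shown are RefSeq sequences on GRCh38.p14, read on the strand of the gene and ending before the first annotated exonic base. The ALDH1A1 stretch lies at chr9:72953057-72953303 on the minus strand, ALDH3A2 at chr17:19647886-19648135 on the plus strand and ALDH1B1 at chr9:38392452-38392663 on the plus strand. The ALDH1B1 stretch stops short of a CCAAT match 26 bases before the RefSeq start. The ALDH3A2 stretch is the first of the RefSeq windows of that gene. Capitals mark any match on either strand to GCGTG (the core bound by the aryl hydrocarbon receptor), to TGACNNNGC (the antioxidant response core) or to TGANTCA (the element of AP-1). They also mark CCAAT, the element bound by NF-Y. The last motifs searched were TATAAA, known as the TATA box, and GGGCGG, known as the GC box. TGACNNNGC and TGANTCA can overlap each other.
ALDH1A1: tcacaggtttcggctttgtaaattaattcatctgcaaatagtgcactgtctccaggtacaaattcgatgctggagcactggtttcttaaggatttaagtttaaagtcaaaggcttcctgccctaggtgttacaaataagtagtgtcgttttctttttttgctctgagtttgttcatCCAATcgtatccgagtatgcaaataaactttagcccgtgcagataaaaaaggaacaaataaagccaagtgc
ALDH3A2: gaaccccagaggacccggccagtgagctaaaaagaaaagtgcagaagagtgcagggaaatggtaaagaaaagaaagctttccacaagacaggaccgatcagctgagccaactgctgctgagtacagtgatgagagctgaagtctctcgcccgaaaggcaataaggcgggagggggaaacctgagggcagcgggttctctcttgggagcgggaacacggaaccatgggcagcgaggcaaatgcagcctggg
ALDH1B1: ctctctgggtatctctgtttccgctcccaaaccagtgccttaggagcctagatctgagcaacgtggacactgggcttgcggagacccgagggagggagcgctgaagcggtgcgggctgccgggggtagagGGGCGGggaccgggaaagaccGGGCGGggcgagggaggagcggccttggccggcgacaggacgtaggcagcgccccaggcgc
RefSeq promoters matched 7 of the 10 genes by symbol, in 9 windows of 250 bases. ALDH2, ALDH3A1 and ALDH3B2 had no window and were not searched for motifs. The ALDH1A1 window was the most AT-rich of them, with 38.4% GC, against 55.6% to 82.4% in the other windows. It held a single match, a CCAAT element 74 bases before the start and no GC box, whereas 6 of the 9 windows held GGGCGG, which 42.6% of 35116 promoters of this length hold. CCAAT was found in 5 of the 9 windows and in 32.0% of all promoters, and GCGTG in 2 of the 9 windows (ALDH1A3 and the second ALDH3A2 window) and in 32.2% of all. The second ALDH3A2 window, at chr17:19648501-19648750, is not shown above. It held 1 GCGTG, 1 CCAAT and 4 GGGCGG matches, where the window shown held 0 of each. TGACNNNGC, TGANTCA and TATAAA had 0 matches in the 9 windows and occurred in 10.9%, 6.57% and 10.7% of all promoters. These letters are a description and identify no bound site.

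The 10 genes divided into 4 that passed the threshold upward, ALDH3B2, ALDH1A1, ALDH3A1 and ALDH3A2, and 6 that did not pass it. The threshold was an adjusted p under 0.05 from edgeR's quasi-likelihood test over 14380 genes, of which 3.32% passed, 2.09% upward and 1.23% downward. ALDH3B2, ALDH1A1 and ALDH3A1 also differed by at least 2-fold, which 0.695% of all tested genes did upward. All 10 genes passed the filter on low counts. Both TYMP libraries lay above both NC libraries for 6 genes and below them for 3, where 43.6% of all tested genes had groups that did not overlap, 21.8% above and 21.8% below. ALDH7A1 was the 1 gene whose groups overlapped. Log2 fold changes ran from -0.47 to 2.40, with a median of 0.40 against -0.0051 over all tested genes. The genes were chosen with this contrast in view, so nothing is read from these shares.

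**Figure D1:**
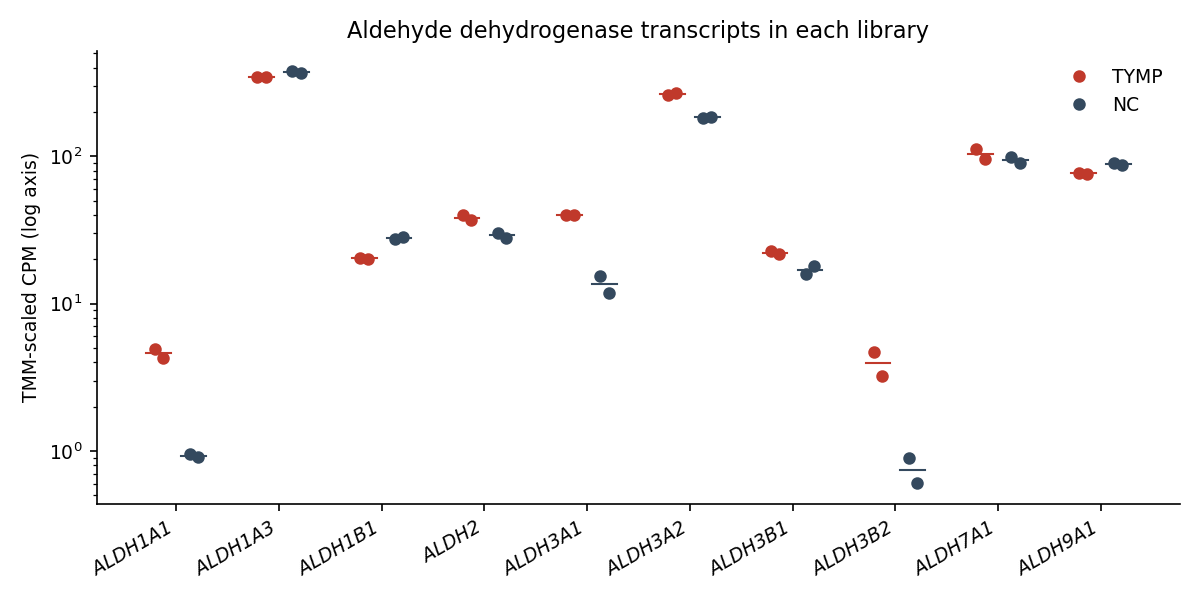
TMM-scaled CPM (log axis) of the 10 genes. Each point is a library, TYMP (red) left of NC (dark), and each line the mean of 2 libraries. ALDH1A1 and ALDH3B2 are the lowest of the 10 genes in both groups and show the widest separation, and ALDH1A3 is the highest.

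ALDH1A1 and ALDH1A3 encode cytosolic retinaldehyde dehydrogenases, the enzymes that make retinoic acid. ALDH1A1 had 79 and 73 reads in TYMP replicates 1 and 2, against 16 and 15 in NC replicates 1 and 2. This was 4.60 ± 0.427 CPM in TYMP and 0.929 ± 0.0328 CPM in NC libraries (SD, n = 2 each). Both TYMP libraries stood above both NC libraries, with a fold change of 4.92 (log2 2.30 ± 0.312 SE). ALDH1A3 had 342 and 344 CPM in the TYMP libraries, against 377 and 365 CPM in the NC libraries. Its groups did not overlap, but the log2 fold change was -0.11 ± 0.0758 (SE), and it did not pass the threshold. Per kilobase of gene, ALDH1A3 stood 37.2 and 42.6 times above ALDH1A1 in the TYMP libraries and 211 and 214 times above it in the NC libraries, as a ratio of FPKM, the fragments per kilobase scaled to sequencing depth. Since ALDH1A3 held nearly all reads of the pair, their sum was 348 ± 0.833 CPM in TYMP and 372 ± 8.58 CPM in NC libraries. Reads of ALDH1A3 are less certain than the others. Its antisense gene ALDH1A3-AS1 covers 27.5% of its exonic bases, and the sources used here do not give the strand setting of the counting. The antisense gene had 683 and 753 reads in the TYMP libraries, against 695 and 687 in the NC libraries.

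The mitochondrial pair ALDH2 and ALDH1B1, which oxidize acetaldehyde and other small aldehydes, differed in sign. ALDH2, the main acetaldehyde dehydrogenase of ethanol metabolism, had 40.0 and 36.8 CPM in the TYMP libraries, against 30.3 and 27.8 CPM in the NC libraries (log2 fold change 0.40 ± 0.116 SE). ALDH1B1 had 20.5 and 20.1 CPM in the TYMP libraries, against 27.6 and 28.5 CPM in the NC libraries (log2 fold change -0.47 ± 0.123 SE). Neither passed the threshold, although the groups overlapped for neither gene. The FPKM of ALDH1B1 was 1.60 and 1.70 times that of ALDH2 in the TYMP libraries and 2.83 and 3.19 times in the NC libraries. In reads the pair summed to nearly the same level, 58.6 ± 2.56 CPM in TYMP and 57.1 ± 1.11 CPM in NC libraries (SD, n = 2 each).

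All 4 genes of the ALDH3 class were higher in both TYMP libraries than in both NC libraries. So were 21.8% of all tested genes, and these 4 were chosen with their counts known. ALDH3A1, a cytosolic enzyme known from the cornea that oxidizes aromatic and lipid-peroxidation aldehydes, had 40.2 and 40.2 CPM in the TYMP libraries, against 15.3 and 11.9 CPM in the NC libraries. It was 2.95-fold higher (log2 1.56 ± 0.140 SE), and the spread between its NC libraries was the larger of its within-group spreads. ALDH3A2, the membrane-bound fatty aldehyde dehydrogenase, had 262 and 270 CPM in the TYMP libraries, against 183 and 185 CPM in the NC libraries. It was 1.45-fold higher (log2 0.53 ± 0.0785 SE) with replicates that lay close together, and of the 10 genes it gained the most reads. ALDH3B1, which oxidizes lipid-derived aldehydes at membranes, had 22.8 and 21.6 CPM in the TYMP libraries, against 15.8 and 17.9 CPM in the NC libraries. Its log2 fold change of 0.39 ± 0.136 (SE) did not pass the threshold.

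ALDH3B2, the closest relative of ALDH3B1, encodes an enzyme that in the mouse is found on lipid droplets. It had 76 and 55 reads in TYMP replicates 1 and 2, against 15 and 10 in NC replicates 1 and 2, or 3.98 ± 1.04 CPM in TYMP and 0.748 ± 0.204 CPM in NC libraries (SD, n = 2 each). This was a 5.26-fold difference (log2 2.40 ± 0.368 SE), the largest of the 10 and the one with the widest error. The libraries of each group differed by 0.54 (TYMP) and 0.56 (NC) on the log2 scale, less than the 1.86 between the nearest libraries of the groups. A gap between groups wider than both replicate gaps was found for 9 of the 10 genes, which were chosen with these counts known. The ALDH3 class summed to 332 ± 3.67 CPM in TYMP and 215 ± 0.612 CPM in NC libraries (SD, n = 2 each), a ratio of 1.54. ALDH3A2 and ALDH3A1 carried most of that sum. Of the distinct 50-base stretches of ALDH3B2 transcripts, 1.09% also occurred in ALDH3B1.

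ALDH7A1, or antiquitin, an enzyme of lysine breakdown, had 111 and 95.9 CPM in the TYMP libraries, against 99.3 and 89.7 CPM in the NC libraries. TYMP replicate 2 lay below NC replicate 1, so the groups overlapped, with a log2 fold change of 0.13 ± 0.101 (SE). ALDH9A1, which makes gamma-butyrobetaine for carnitine synthesis, had 77.2 and 75.8 CPM in the TYMP libraries, against 89.8 and 86.7 CPM in the NC libraries. Its log2 fold change was -0.21 ± 0.0907 (SE), without overlap of the groups and without passing the threshold.

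**Figure D2:**
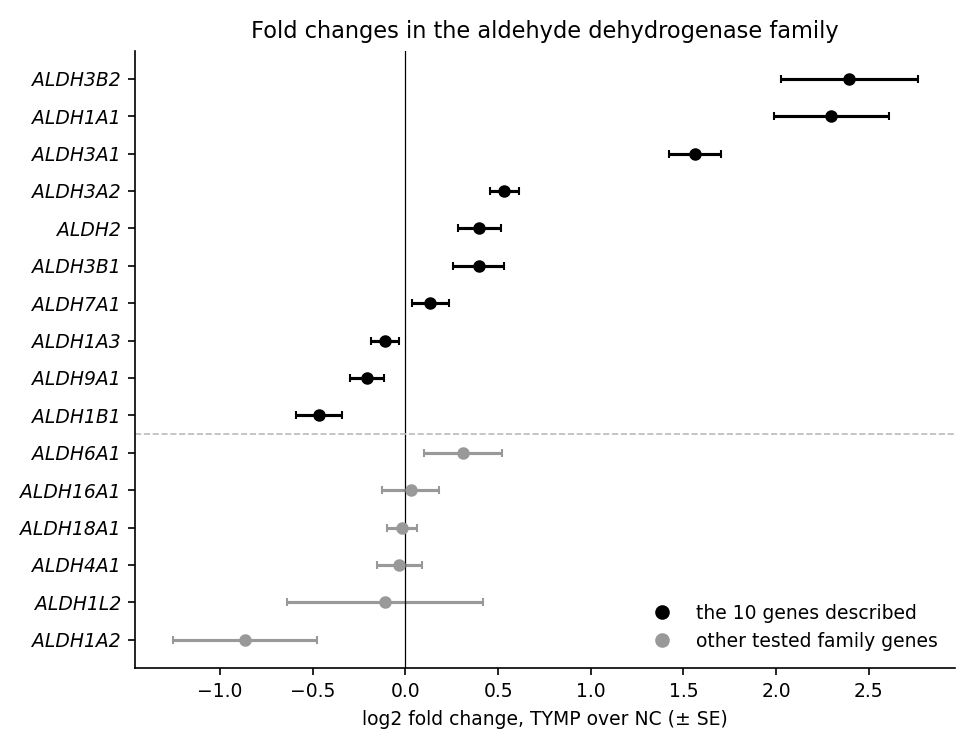
Log2 fold change of TYMP over NC with its standard error (edgeR) for the 10 genes (black) and, under the dashed line, the 6 other family genes that could be tested (grey). ALDH3B2, ALDH1A1 and ALDH3A1 lie above 1.5, and ALDH1B1 has the lowest value of the 10, -0.47.

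As a pool, the 10 genes differed less between the groups than ALDH1A1 or the ALDH3 class did. Their summed level was 926 and 912 CPM in the TYMP libraries, against 839 and 814 CPM in the NC libraries, a ratio of 1.11. The ratio was 1.05 in summed FPKM, and 1.26 in CPM without ALDH1A3. ALDH3 genes made up 35.6% and 36.7% of the pooled reads in the TYMP libraries, against 25.6% and 26.5% in the NC libraries. ALDH1A1 and ALDH1A3 together made up 37.5% and 38.2% in the TYMP libraries, against 45.0% and 44.9% in the NC libraries.

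**Figure D3:**
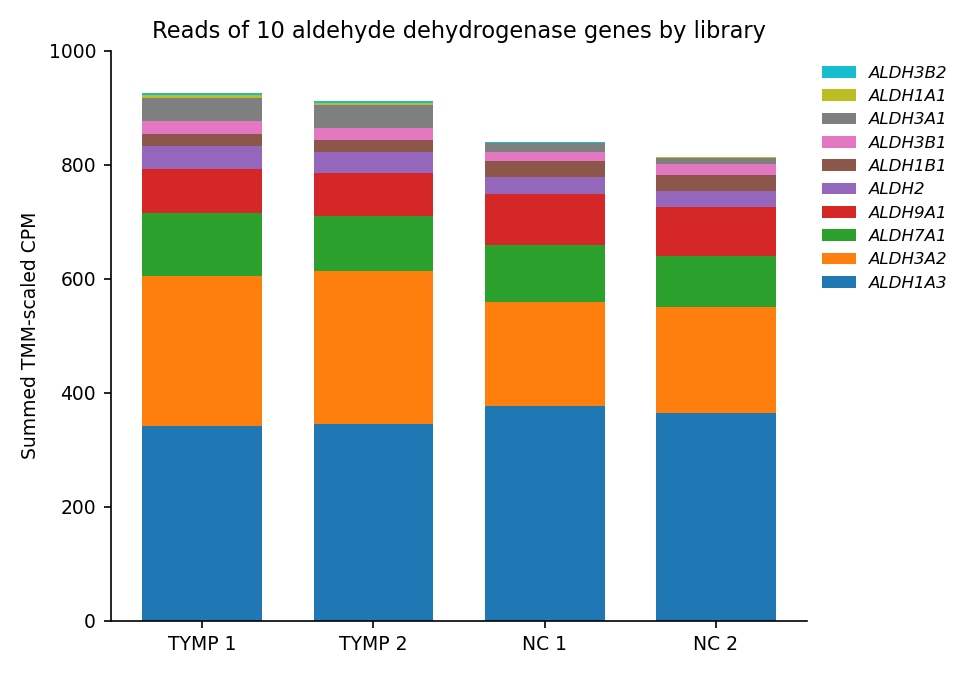
Summed TMM-scaled CPM of the 10 genes in each library, stacked by gene. The 2 TYMP bars reach 926 and 912 and the 2 NC bars 839 and 814, with a thicker ALDH3A2 segment in TYMP.

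The order of levels per length was led by ALDH1A3 in both groups, at 64.6 ± 1.19 FPKM in TYMP and 68.9 ± 1.20 FPKM in NC libraries (SD, n = 2 each). ALDH9A1 came next, at 25.6 ± 0.0439 FPKM in TYMP and 29.1 ± 0.553 FPKM in NC libraries, and then ALDH3A2, at 17.4 ± 0.628 FPKM in TYMP and 11.9 ± 0.180 FPKM in NC libraries. ALDH1A1 and ALDH3B2 were the lowest in both groups, with 1.63 ± 0.127 and 1.11 ± 0.275 FPKM in TYMP and 0.325 ± 0.00960 and 0.206 ± 0.0550 FPKM in NC libraries. ALDH3A1 ranked 4 in the TYMP libraries and 6 in the NC libraries, where it overlapped its neighbour in the order, ALDH2. No other neighbours in either order overlapped. The order depends on the length used: the deposited FPKM imply 15331 bases for ALDH3A2, but its longest principal transcript in GENCODE 29 has 3928. Divided by that length instead, an alternative chosen after the data were seen, ALDH3A2 had 67.7 ± 1.44 CPM per kilobase in TYMP and 46.8 ± 0.439 in NC libraries and ranked 2 in both, behind ALDH1A3. On that length ALDH3A1 ranked 5 in TYMP and 6 in NC libraries, ALDH1B1 ranked 7 in TYMP and 5 in NC libraries, and ALDH3B1 ranked 6 in TYMP and 7 in NC libraries. ALDH3A1 had 20.9 ± 0.0184 CPM per kilobase in the TYMP libraries, within the spread of ALDH7A1 at 20.9 ± 2.20.

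The remaining 9 genes of the family were compared from the same fit. Of the 6 that could be tested, 0 passed the threshold with edgeR, DESeq2 or limma-voom, and 1 had an unadjusted edgeR p under 0.05. Their median log2 fold change was -0.0270. That 1 gene was ALDH1A2, the retinaldehyde dehydrogenase of the embryo, with 16 and 22 reads in the TYMP libraries against 43 and 27 in the NC libraries (log2 fold change -0.87 ± 0.391 SE, edgeR adjusted p = 0.327). ALDH18A1, which starts proline synthesis, was the most abundant of them, with 170 and 169 CPM in TYMP against 175 and 168 CPM in NC libraries (edgeR adjusted p = 0.948). ALDH1L1, ALDH5A1 and ALDH8A1 had at most 5 reads in any library and were not tested. The 10 genes were picked from this family with values known, so the contrast between them and the remaining 9 was not tested.

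Some of the genes share a chromosome. ALDH3A2 (chromosome 17, 19648136 to 19677598, plus strand) and ALDH3A1 (19737984 to 19748943, minus strand) are 60386 bases apart on GRCh38, and SLC47A2 lies between them. SLC47A2, which encodes an organic cation exporter, and the other neighbours named here, ULK2 and GSTP1, were picked out after their values were seen. SLC47A2 had 5.90 and 6.42 CPM in the TYMP libraries, against 1.67 and 1.57 CPM in the NC libraries, and rose by 1.92 ± 0.262 on the log2 scale (SE, edgeR adjusted p = 0.00124). It lies on the minus strand, 690 bases from ALDH3A2. The strand setting of the counting is not given, and whether reads of ALDH3A2 were counted for SLC47A2 was not tested. ULK2, an autophagy kinase on the far side of ALDH3A1, had 19.3 and 19.8 CPM in TYMP and 20.1 and 21.9 CPM in NC libraries (edgeR adjusted p = 0.807). Within 100 kb of the 10 genes there were 19 other tested protein-coding genes. SLC47A2 was the 1 of these 19 that passed, where 3.32% of all tested genes passed. The other 18 had log2 fold changes between -0.19 and 0.45. ALDH3B2 (chromosome 11, 67662162 to 67681200) and ALDH3B1 (68008578 to 68029282) also lie on one chromosome. Their tested neighbours, among them the glutathione transferase gene GSTP1 at 0.12 ± 0.0833 (log2 fold change, SE; edgeR adjusted p = 0.557), did not pass.

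**Figure D4:**
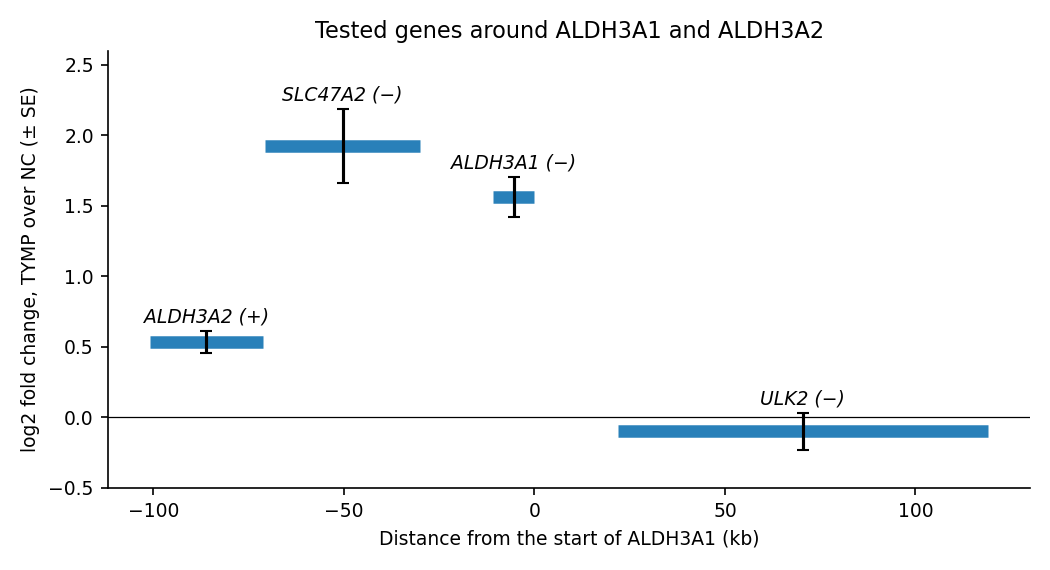
Log2 fold change of TYMP over NC (with standard error) of the tested genes around ALDH3A1 and ALDH3A2, drawn as bars at their distance in kilobases from the start of ALDH3A1, with their strand. SLC47A2, ALDH3A1 and ALDH3A2 lie at 1.92, 1.56 and 0.53, and ULK2 at -0.10.

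Genes that feed or share aldehyde metabolism were read from 7 lists, some of which share genes. The lists were chosen with earlier results of these data known, so their counts and adjusted p-values are a description. Over all tested genes, 2.09% passed upward and 1.23% downward. Of 17 tested genes of retinoic acid synthesis, binding and breakdown, 1 rose, 0 fell and the median log2 fold change was 0.22. The riser was CRABP2, which carries retinoic acid to its nuclear receptor, with 29.05 and 26.9 CPM in the TYMP libraries against 12.8 and 14.4 CPM in the NC libraries (log2 fold change 1.04 ± 0.136 SE, edgeR adjusted p = 0.000926). This count was 5 without NC replicate 1 and 2 without either TYMP library, where 1 gene also fell. It was 2 with DESeq2 and 3 with no filter. CYP26A1, the retinoic acid-inducible hydroxylase, had 0.993 and 1.35 CPM in TYMP against 0.476 and 0.604 CPM in NC libraries and did not pass (edgeR adjusted p = 0.324). It is named here after its values were seen. Of the 7 alcohol dehydrogenases, only ADH5 had enough reads to be tested. It had 126 and 135 CPM in TYMP against 143 and 126 CPM in NC libraries (edgeR adjusted p = 0.878). By DESeq2 and limma-voom 0 of these passed either, and ADH5 had an unadjusted edgeR p of 0.614.

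Among 15 tested enzymes that remove reactive aldehydes by other routes, 4 rose, 1 fell and the median log2 fold change was 0.10. The risers were aldo-keto reductases, which reduce aldehydes and ketones to alcohols. AKR1C2 had 132 and 135 CPM in the TYMP libraries, against 64.4 and 62.0 CPM in the NC libraries (log2 fold change 1.07 ± 0.0885 SE, edgeR adjusted p = 2.72e-05). AKR1C3 rose by 0.91 ± 0.135 (adjusted p = 0.00199) and AKR1C1 by 0.80 ± 0.149 (adjusted p = 0.00888) on the log2 scale in the edgeR fit. The AKR1C genes are near-identical in sequence, so the split of reads between them is uncertain. AKR1B10, which also reduces retinaldehyde, was named after its values were seen. It rose by 1.88 ± 0.431 (edgeR adjusted p = 0.031), but by 2.96 without NC replicate 1, and did not pass without NC replicate 2 (1.28, adjusted p = 0.067, range over alternatives 9.2e-06 to 0.404). AOX1, an aldehyde oxidase that needs molybdenum, fell to 4.16 and 3.89 CPM in the TYMP libraries, against 7.97 and 8.51 CPM in the NC libraries (edgeR adjusted p = 0.0147).

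Of 15 tested enzymes that release aldehydes, 1 rose, 2 fell and the median log2 fold change was 0.08. AOC1, the diamine oxidase, had 10.5 and 9.42 CPM in the TYMP libraries, against 3.39 and 2.17 CPM in the NC libraries, and rose by 1.83 ± 0.243 (log2, SE; edgeR adjusted p = 0.000976). SHMT1, which interconverts serine and glycine and also cleaves some hydroxy amino acids to aldehydes, had 1.30 and 0.766 CPM in the TYMP libraries, against 9.16 and 5.62 CPM in the NC libraries, and fell by 2.83 ± 0.341 on the log2 scale (edgeR adjusted p = 0.000458). SMOX, the spermine oxidase, had 60.8 and 54.9 CPM in TYMP and 86.6 and 71.9 CPM in NC libraries (edgeR adjusted p = 0.046). SMOX did not pass with limma-voom (adjusted p = 0.0625), or without TYMP replicate 2 (adjusted p = 0.257) or NC replicate 1 (0.151), with a range of 7.85e-05 to 0.434 over its alternatives. Of 11 tested genes of the fatty alcohol and sphingolipid aldehyde cycle, whose aldehydes ALDH3A2 oxidizes, 1 rose, 0 fell and the median was 0.04. CYP4F12, a fatty acid hydroxylase, was the riser, by 1.76 ± 0.276 (log2, SE; edgeR adjusted p = 0.00282) and by 2.42 without NC replicate 1.

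ALDH3A1 is a known target of the aryl hydrocarbon receptor, and several family members respond to the oxidative stress factor NRF2. Of 7 tested genes of the aryl hydrocarbon receptor pathway, 1 rose, 0 fell and the median log2 fold change was 0.12. CYP1B1 rose by 0.68 ± 0.101 (log2, SE), with 188 and 215 CPM in the TYMP libraries against 115 and 136 CPM in the NC libraries (edgeR adjusted p = 0.00193). Without NC replicate 2 a second gene of this list passed. CYP1A1, the classical target of the receptor, had 9.93 and 8.72 CPM in TYMP and 8.87 and 7.25 CPM in NC libraries (edgeR adjusted p = 0.683). Of 16 tested genes listed here for the NRF2 pathway, 0 rose, 1 fell and the median was 0.04. The aldo-keto reductases that rose were not part of this list, so its counts depend on which genes were placed in it. The list does not hold every gene that responds to NRF2. SLC7A11, the cystine importer, fell to 77.2 and 90.9 CPM in the TYMP libraries, against 123 and 151 CPM in the NC libraries (edgeR adjusted p = 0.00334). NQO1, a member of both lists, had 135 and 134 CPM in TYMP against 146 and 151 CPM in NC libraries and did not pass (edgeR adjusted p = 0.469). CYP1A1 and NQO1 were picked out after their values were seen. The calls of AKR1B10, AKR1C1, AOX1, SMOX, CYP4F12, CYP1B1, SLC7A11 and KRT14 were lost on log2 FPKM with limma. Their adjusted p from limma lay between 0.0511 and 0.138 with a pseudocount of 1. SHMT1 and SLC47A2 were filtered out there and did not pass on unfiltered log2 FPKM, where 0 genes passed.

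**Figure D5:**
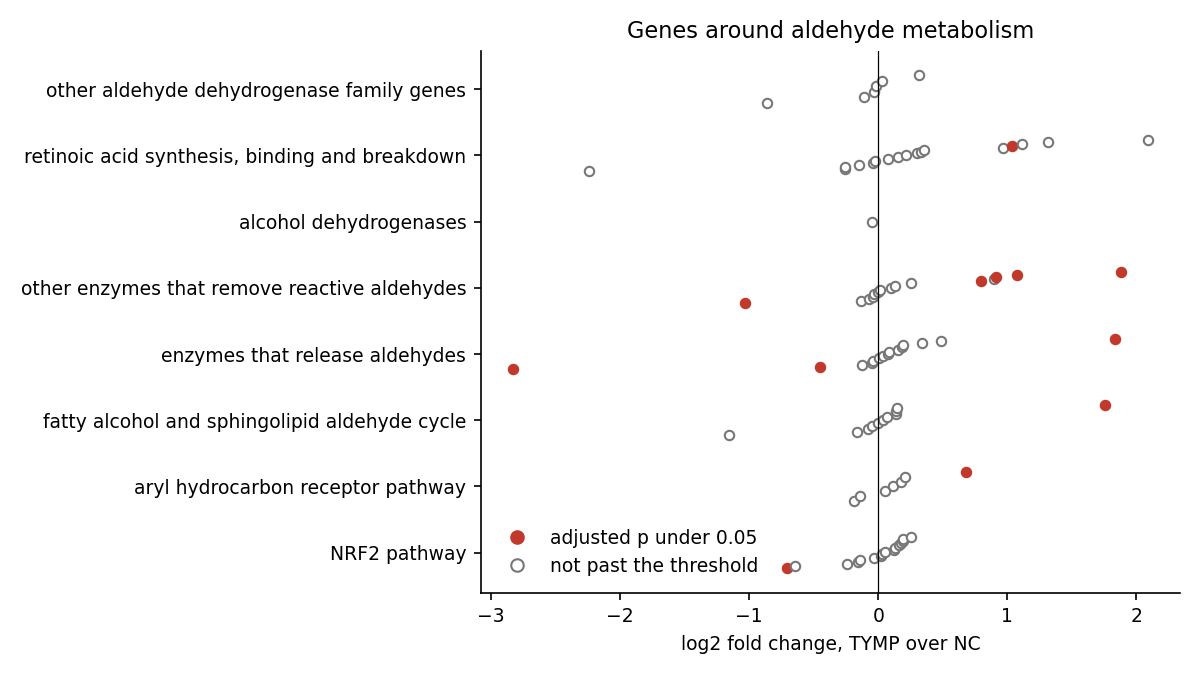
Log2 fold change of TYMP over NC for every tested gene of the other family genes and the 7 lists, 1 point a gene, filled red where the edgeR adjusted p was under 0.05. Most points lie near 0, and filled points to the right include CRABP2, the aldo-keto reductases, AOC1, CYP4F12 and CYP1B1.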

How the data were processed

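RNA of 2 TYMP and 2 NC libraries was compared. The deposited table holds raw read counts and FPKM per gene. The submitters' processing notes name HISAT2, HTSeq 0.13.5 and GRCh38 without roles, and the sources used here do not give the annotation release or strand setting. The authors' FPKM follow from the counts, the library total and 1 length per gene (a whole number of bases for all 87668 values above 0, tolerance 0.001 bases). Of the measurement columns, 0 were left unmatched to a sample.

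Counts were tested in R 4.3.3 with edgeR 4.0.16 and its quasi-likelihood test (filterByExpr, TMM, robust dispersion, group as the only term), with Benjamini-Hochberg adjustment over 14380 genes and a threshold of 0.05. The exact permutation test of 2 against 2 libraries cannot go below p = 0.333. Values are TMM-scaled CPM, as mean ± SD where n = 2. The SE of a log2 fold change was derived as its absolute value divided by the square root of the edgeR F statistic. In simulated TYMP against NC counts (14082 genes tested), 53.0%, 79.0% and 93.5% of 1.5-fold, 2-fold and 4-fold changes were recovered. Of 159 calls 17 were false, or 10.7%, which is above the threshold of 0.05. The simulation took its spread from these 4 libraries, so it does not cover differences between separate lines or cultures. Replicates were not duplicates (chi-square per degree of freedom 5.84 for TYMP and 7.39 for NC).

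The members and lists were chosen with earlier results of these data known. Named genes were all members and, of each of the other lists, up to 4 genes past the threshold by smallest adjusted p. Others are marked where they appear. Coordinates, exons and neighbours come from GENCODE 29 (GRCh38), matched by identifier for all 10 genes. Promoters come from RefSeq (GRCh38.p14). Alternatives were DESeq2 1.42.0, limma-voom (limma 3.58.1), other scalings and filters, a replicate block, log2 FPKM with pseudocounts of 1 and 0.1, and each library left out. Where a group was left with 1 library, its spread was taken from the other group.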

Additional observations from a re-analysis of the deposited data

How the results depend on the processing

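All 10 genes kept the sign of their log2 fold change in each of the 14 alternatives in which they could be fitted (11 for ALDH1A1 and ALDH3B2). On log2 FPKM with a pseudocount of 1 and no filter, ALDH1A1 fell to 0.99 and ALDH3B2 to 0.80, because the pseudocount exceeds their level in NC. Between settings on counts, ALDH3B2 ranged from 2.11 to 2.71, ALDH1A1 from 2.21 to 2.39, ALDH3A1 from 1.39 to 1.76 and ALDH3A2 from 0.51 to 0.56. The number of the 10 genes past the threshold was 4 and also 4 with each library left out. It was 2 with at least 5 CPM in 2 libraries and 2 on log2 FPKM with either pseudocount, where ALDH1A1 and ALDH3B2 were filtered out. It was 0 on unfiltered log2 FPKM. With no filter on the counts it was 5, the addition being ALDH1B1, called lower.

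The count over all genes was 478. It was 732 with no filter, 165 and 170 on log2 FPKM with pseudocounts of 1 and 0.1, and 0 on unfiltered log2 FPKM (limma; 2480 genes at an unadjusted p under 0.05). On the filtered counts DESeq2 called 456 genes. With edgeR and each library left out, the count ran from 388 (without TYMP replicate 1) to 728 (without NC replicate 1). The summed level of the 10 genes had a ratio of 1.11, from 1.10 to 1.13 with each library left out, and 1.05 on FPKM. With the replicate number as a block, 2024 genes and 8 of the 10 genes passed, 6 of these higher and 2 lower (ALDH1B1 and ALDH9A1). The libraries share only a number, and the deviations of same-numbered libraries correlated at 0.186 across genes. Of 364 comparisons of list counts, 320 stayed within 1.5 times, 25 were lower and 19 higher. The 320 include counts that were 0 in both settings, and most list counts were 0 in the main fit. These comparisons therefore say little about how stable the calls in the lists are. Depth limits ALDH1A1 and ALDH3B2, which had at most 16 reads in an NC library.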
